A study of Rattus norvegicus with 45 samples.

Results

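The liver transcriptome of vehicle-treated rats was compared between 24 h and 9 h after dosing. Both groups were part of the time course that accompanied a study of acetaminophen (APAP), and their members follow from the labels alone: 5 animals killed at 9 h and 5 killed at 24 h, 10 of the 45 animals measured. All were male Sprague-Dawley rats of 5 weeks of age that had gone without food for 16 h and then received 1% hydroxyethylcellulose, the carrier of the drug, by oral gavage. No animal of these 2 groups received APAP. Food was given back after the fast, at an hour that is not given in the sources used here. By construction 24 h falls at the same hour of the day as dosing and 9 h does not. Time of day and time since food was returned therefore cannot be told apart between the groups. The clock hour of dosing is not given either. The other groups used below were 5 baseline animals at 0 h, 5 vehicle animals each at 3 h and 6 h, and 5 animals each at 9 h and 24 h after APAP at 1000 mg/kg in the same carrier.

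The liver keeps time with a transcriptional loop. Arntl (also Bmal1) pairs with Clock or Npas2 and switches on the Per, Cry and Nr1d genes, whose proteins in turn hold Arntl and its partners back, while Ror receptors push Arntl expression up. The loop drives output genes such as Dbp, Tef and Hlf, which encode transcription factors that bind the D-box. Feeding acts on many of the same genes, and separately sets the balance between burning fat, which the nuclear receptor Ppara promotes in fasting, and making fat from sugar, which insulin promotes after a meal.

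Values are log2 intensities on Affymetrix Rat Genome 230 2.0 arrays, 1 array per animal, so that a difference of 1 is a 2-fold difference. A gene was called, and is said below to have risen or fallen, where limma gave an adjusted p under 0.05 (Benjamini-Hochberg over all 13877 genes measured) and the change was at least 1.5-fold. Each sample was numbered as a separate animal by its title. The arrays measure bulk liver, so fewer cells of a type and less RNA per cell cannot be told apart. Intensities of different genes are not compared with each other, since probes differ in brightness.

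Promoters of 3 genes, Arntl and Per2 of the clock loop and Por of its output, are shown because their letters hold elements through which the loop is known to be wired. The 250 bases before the start of each gene are printed 5′ to 3′ from RefSeq (build GRCr8), with the element in capitals. Arntl lies on the plus strand at chr1:176766078-176766327 and carries a Ror element, TAGGTCA, near its start. Por, the electron donor of the cytochromes P450, lies on the minus strand at chr12:26635810-26636059 and carries the same element on the other strand, read here as TGACCTA. Per2, a repressor of the loop, lies on the minus strand at chr9:99496994-99497243 and carries a D-box of the form TTATGNAA.
Arntl: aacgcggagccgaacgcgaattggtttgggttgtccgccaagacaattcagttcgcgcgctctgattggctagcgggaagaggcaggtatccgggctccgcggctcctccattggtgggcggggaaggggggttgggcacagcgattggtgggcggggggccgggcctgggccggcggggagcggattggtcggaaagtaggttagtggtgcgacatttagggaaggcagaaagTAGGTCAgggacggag
Por: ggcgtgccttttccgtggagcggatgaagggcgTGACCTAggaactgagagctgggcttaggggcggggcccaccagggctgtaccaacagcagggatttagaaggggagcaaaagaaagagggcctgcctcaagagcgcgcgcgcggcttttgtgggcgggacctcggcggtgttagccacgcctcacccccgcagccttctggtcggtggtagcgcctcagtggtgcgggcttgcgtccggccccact
Per2: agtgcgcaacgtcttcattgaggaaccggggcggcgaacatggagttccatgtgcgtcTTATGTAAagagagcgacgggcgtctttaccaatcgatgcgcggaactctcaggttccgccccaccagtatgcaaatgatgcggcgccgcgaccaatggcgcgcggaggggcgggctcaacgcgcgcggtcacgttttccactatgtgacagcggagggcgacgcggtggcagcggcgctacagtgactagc

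Motifs were searched on both strands from 250 bases before to 50 bases after each start. Among 33469 rat promoters in the table, 6.42% held the E-box CACGTG, 3.66% the D-box TTATGNAA, 2.63% the Ror element TAGGTCA and 1.83% the CRE TGACGTCA. Of the 16 measured genes of the clock loop, 13 had a promoter in the table, and 2 of these held an E-box (Bhlhe40 and Bhlhe41), 1 a D-box (Per2) and 1 a Ror element (Arntl). Of 21 measured output genes, 17 had a promoter in the table, and 5 held an E-box (Bhlhe41, Elovl3, Klf15, Mgll and Tef) and 1 a Ror element (Por). A match describes the letters only and is not a binding site.

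Between 9 h and 24 h, 213 of 13877 genes were called (1.53% of genes tested), of which 107 rose (0.771%) and 106 fell (0.764%). The change over all genes was centered on zero, with a median of -0.01 on the log2 scale. Pearson's r between arrays was 0.991 to 0.996 within the 9 h group, 0.990 to 0.994 within the 24 h group and 0.987 to 0.992 between the groups, and the array medians lay between 7.32 and 7.36. No array stood apart. At least 2-fold changes numbered 35 up and 23 down. The values of the 5 animals at 24 h did not overlap those of the 5 animals at 9 h for 178 of the 213 called genes, beside 1107 of all 13877 genes (7.98%).

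Of the 16 measured genes of the clock loop, 2 fell and none rose, 12.5% of the list beside 1.53% of all genes. At an unadjusted limma p under 0.05 there were 9 of 16, beside 21% of all genes. The 2 that fell were Npas2 and Arntl, partners in the activating arm. Npas2 was 7.85, 7.93, 8.11, 8.26 and 8.30 in the 5 animals at 9 h and 7.0, 6.19, 6.68, 7.06 and 7.10 in those at 24 h. Every 24 h animal was below every 9 h animal. The fall was 2.43-fold (log2 change -1.28 ± 0.16 SE, limma adjusted p = 0.000824). Arntl was 8.52, 8.63, 8.86, 8.82 and 9.02 at 9 h and 8.48, 7.61, 7.95, 8.12 and 8.56 at 24 h. Its groups overlapped, since the highest 24 h animal lay above the lowest 9 h animal. It fell 1.54-fold (-0.62 ± 0.17, limma adjusted p = 0.0406), a call that was absent without any of 7 animals left out in turn (24 h animals 2, 3 and 4 and 9 h animals 2, 3, 4 and 5, adjusted p = 0.0577 to 0.0961). Clock, the alternative partner of Arntl, was 7.60 to 7.76 at 9 h and 7.15 to 7.54 at 24 h, which do not overlap, but its change of -0.28 ± 0.07 did not reach 1.5-fold (limma adjusted p = 0.0354).

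The repressing arm showed no call. Per1, a repressor that also responds to glucocorticoids, changed by 0.24 ± 0.14, Per3 by 0.21 ± 0.08 and Cry1, a repressor that pairs with the Per proteins, by 0.27 ± 0.12. Per2 was 9.19, 7.86, 8.44, 8.04 and 8.62 at 9 h and 9.09, 9.54, 8.54, 8.85 and 8.22 at 24 h. These values overlapped almost throughout, and the change of 0.42 ± 0.27 was not called (limma adjusted p = 0.43). The nuclear receptors Nr1d1 and Nr1d2, which repress Arntl, differed in sign, at -0.42 ± 0.14 (limma adjusted p = 0.0976) and 0.44 ± 0.16 (limma adjusted p = 0.136). Over the list of 16, 9 were higher and 7 lower in the mean, with a median of 0.08, beside -0.01 over all genes. Rora, Cry2, Bhlhe40, Bhlhe41, Csnk1d and Csnk1e, of the rest of the list, had changes between -0.53 (Bhlhe40) and 0.26 (Rora).

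**Figure D1:**
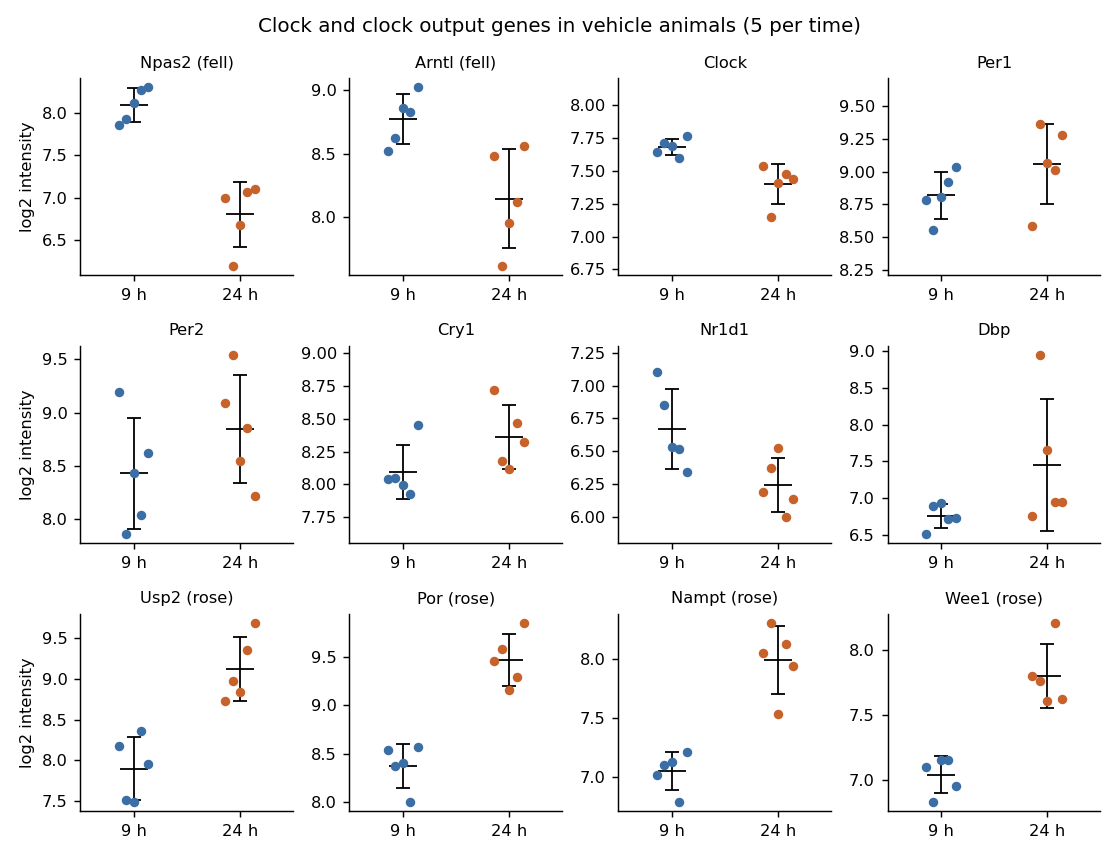
Log2 intensity of 12 clock and clock output genes in each vehicle animal at 9 h and 24 h, 1 point per animal (5 per time) with a bar at the group mean. Npas2 separates downward and Usp2, Por, Nampt and Wee1 separate upward, whereas Per1, Per2, Cry1 and Nr1d1 overlap.

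Of 21 measured clock output genes, 5 rose and 1 fell, 28.6% of the list beside 1.53% of all genes, with a median change of 0.30. Usp2, a deubiquitinase whose transcript cycles in many rodent tissues, was 8.18, 7.50, 7.48, 8.36 and 7.96 at 9 h and 8.73, 8.98, 8.84, 9.35 and 9.69 at 24 h. All 24 h animals were higher, by 2.34-fold in the mean (1.22 ± 0.21, limma adjusted p = 0.00472). Por was 8.54, 8.37, 8.40, 8.00 and 8.57 at 9 h and 9.46, 9.58, 9.16, 9.29 and 9.85 at 24 h. The groups did not overlap and the rise was 2.13-fold (1.09 ± 0.14, limma adjusted p = 0.000701).

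Nampt, the rate-limiting enzyme of NAD salvage, was 7.02, 7.10, 7.13, 6.79 and 7.21 at 9 h and 8.06, 8.31, 7.53, 8.13 and 7.95 at 24 h, again with no overlap. It rose 1.92-fold (0.94 ± 0.13, limma adjusted p = 0.00134). Wee1, a kinase that delays entry into mitosis, was 6.83 to 7.15 at 9 h and 7.61 to 8.21 at 24 h, and rose by 0.76 ± 0.11 (limma adjusted p = 0.00214). Nr1i3, the nuclear receptor CAR that controls drug metabolism genes, rose by 0.72 ± 0.15 (limma adjusted p = 0.0131). Klf10, a repressor of sugar metabolism genes in mouse liver and the output gene that moved the other way, was 9.33 to 9.81 at 9 h and 8.56 to 9.29 at 24 h, a fall of 0.69 ± 0.14 (limma adjusted p = 0.0124).

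The D-box binding factors themselves were not called. Tef changed by 0.30 ± 0.07 and Hlf by 0.48 ± 0.12, with limma adjusted p = 0.03 and 0.0288 but under 1.5-fold. Dbp was 6.51 to 6.93 at 9 h and 6.76, 8.94, 7.66, 6.95 and 6.94 at 24 h. The 24 h group was spread over more than 2 log2 units, with animal 2 far above the rest, and the change of 0.69 ± 0.34 missed the threshold (limma adjusted p = 0.275). Noct, a protein whose transcript peaks at night in mouse liver, changed by 1.16 ± 0.33 with overlapping groups (limma adjusted p = 0.0543). Of the remaining output genes (Nfil3, Alas1, Gys2, Elovl3, Tfrc, Cys1, Mgll, Klf9, Klf15, Ppara and Bhlhe41) none was called. Elovl3, a fatty acid elongase, was the flattest, at 3.85 in the mean of both groups.

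The levels at the other times place these differences in the course of the experiment, as means of 5 animals with no test. Npas2 was 7.55 at 0 h, 8.02 at 3 h, 8.02 at 6 h, 8.09 at 9 h and 6.81 at 24 h. Its 24 h level was thus below the 0 h level. The 0 h animals were sampled at the same hour of the day but at the end of the 16 h fast. The part of feeding and of time of day in these levels was not tested. Por was 10.77 at 0 h, 9.91 at 3 h, 8.92 at 6 h, 8.38 at 9 h and 9.47 at 24 h, so that its rise brought it back part of the way to the fasted level. Per2 was 7.60 at 0 h, 9.93 at 3 h, 9.40 at 6 h, 8.43 at 9 h and 8.85 at 24 h. The 3 h group held its highest mean, and the 24 h mean lay above that at 0 h. Arntl was 8.84 at 0 h and 8.14 at 24 h.

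Genes of fat oxidation held the largest falls. Their list, drawn from targets of Ppara and enzymes of ketogenesis, had 8 of 37 measured members lower and 1 higher (24.3% called beside 1.53%), with a median of -0.16. At an adjusted p under 0.05 without the fold threshold, 19 of 37 passed, beside 1046 of all 13877 genes. Acot1, a cytosolic thioesterase that releases fatty acids from coenzyme A, was 5.91, 7.61, 7.60, 7.90 and 8.16 at 9 h and 4.48, 4.49, 4.39, 4.61 and 4.66 at 24 h. The groups did not overlap, the 24 h animals lay close together, and 9 h animal 1 lay well below its group. The measured fall of 7.51-fold was the largest of any gene (-2.91 ± 0.33, limma adjusted p = 0.000386). The 24 h values were low, and without detection calls they could not be set against background. Whether background limited their spread and the size of the fall was not tested. Acot2, its mitochondrial relative, fell by 0.95 ± 0.14 (limma adjusted p = 0.00248). These 2 genes and the Cyp4a genes belong to families of similar sequence, whose probes could share signal.

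Eci1, a mitochondrial isomerase needed to oxidize unsaturated fatty acids, was 13.00, 13.10, 13.26, 13.23 and 13.51 at 9 h and 10.33, 10.66, 10.62, 10.20 and 10.72 at 24 h. A gap of more than 2 log2 units separated the groups, and the fall was 6.56-fold (-2.71 ± 0.12, limma adjusted p = 1.46e-07). Ech1, an isomerase of the same route that was not on the list, was 12.66 to 13.10 at 9 h and 10.63 to 11.13 at 24 h, a fall of 4.08-fold (limma adjusted p = 1.06e-06). Vnn1, a pantetheinase and an established Ppara target, was 10.06 to 10.78 at 9 h and 8.00 to 8.63 at 24 h. It fell 4.14-fold (limma adjusted p = 2.21e-05). Cyp4a1, a fatty acid omega-hydroxylase, was 13.05 to 13.26 at 9 h and 11.35 to 11.89 at 24 h. It fell 2.93-fold (limma adjusted p = 4.47e-06).

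The other members that fell, given here after their values were seen, were Ehhadh, the peroxisomal bifunctional enzyme (-0.96 ± 0.11, limma adjusted p = 0.000386), Acaa2, a mitochondrial thiolase (-0.68 ± 0.08, limma adjusted p = 0.000471), and Etfdh, which passes electrons from fat oxidation to the respiratory chain. Etfdh fell by 0.63 ± 0.12, and its change dropped under 1.5-fold without 24 h animal 2 (-0.58) or animal 4 (-0.54). Hadha and Hadhb, the subunits of the mitochondrial trifunctional protein, changed by -0.47 ± 0.05 (limma adjusted p = 0.00027) and -0.51 ± 0.06 (limma adjusted p = 0.000691), which is under 1.5-fold. Ppara itself changed by 0.17 ± 0.11.

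Cpt1a, which admits long-chain fatty acids to mitochondria and is the usual rate-limiting step, went the other way. It was 7.73, 9.01, 8.33, 8.37 and 8.10 at 9 h and 9.65, 9.34, 10.02, 9.83 and 9.91 at 24 h. The groups did not overlap and the rise was 2.72-fold (1.44 ± 0.20, limma adjusted p = 0.00161). Cpt2, the enzyme that follows it, changed by 0.40 (limma adjusted p = 0.00273, under 1.5-fold). In the group means Cpt1a was 12.62 at 0 h, 11.34 at 3 h, 9.42 at 6 h, 8.31 at 9 h and 9.75 at 24 h. Acot1 in contrast was 11.43, 9.92, 9.11, 7.44 and 4.53 at the same times, and Eci1 13.89, 13.74, 13.62, 13.22 and 10.51. The lowest mean was thus at 9 h for Cpt1a and at 24 h for Acot1 and Eci1.

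**Figure D2:**
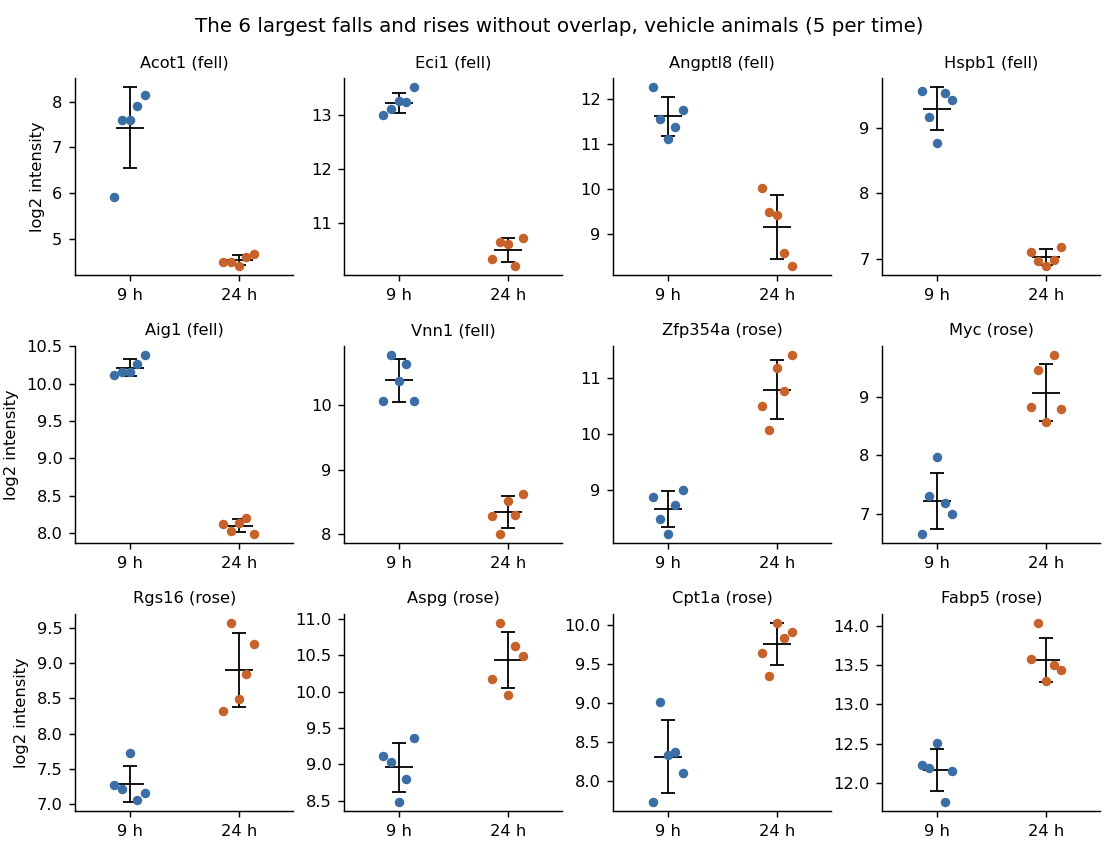
Log2 intensity in each vehicle animal at 9 h and 24 h (5 per time, bar at the group mean) for the 6 genes with the largest falls and the 6 with the largest rises among called genes whose groups did not overlap. Acot1 falls furthest, with 24 h animals at 4.39 to 4.66, and Zfp354a rises furthest, with 24 h animals at 10.07 to 11.40.

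In the lipogenesis list, which holds enzymes that turn sugar into fat, 9 of 28 measured members rose and 2 fell (39.3% called beside 1.53%), with a median of 0.44. The number called ranged from 8 to 12 with 1 animal left out, and was lowest without 24 h animal 2 or 9 h animal 4. Scd, the desaturase that makes oleate, was 14.001, 12.44, 13.72, 12.59 and 12.72 at 9 h and 14.28, 14.46, 14.25, 14.46 and 14.40 at 24 h. The 24 h animals lay close together and above all 9 h animals, which were spread over more than 1 log2 unit. The rise was 2.42-fold (1.28 ± 0.27, limma adjusted p = 0.0142). Me1, the malic enzyme that supplies NADPH, was 10.14 to 11.25 at 9 h and 11.63 to 12.53 at 24 h, and rose 2.39-fold (limma adjusted p = 0.00423).

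Pklr, the liver pyruvate kinase, was 11.72, 10.06, 11.55, 10.88 and 10.84 at 9 h and 12.14, 12.18, 12.09, 12.27 and 12.44 at 24 h. The 9 h animals were again the more dispersed, and no value overlapped. It rose 2.32-fold (1.21 ± 0.25, limma adjusted p = 0.0132). Acss2, which activates acetate, was 10.55 to 11.41 at 9 h and 11.74 to 12.49 at 24 h, and rose by 1.05 ± 0.17 (limma adjusted p = 0.00322).

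Other lipogenic members are given after their values were seen. Pgd, of the pentose phosphate pathway, rose by 0.98 ± 0.16 (limma adjusted p = 0.0042) and Fads2, which makes polyunsaturated fatty acids, by 0.85 ± 0.10 (limma adjusted p = 0.000487). Fasn, the fatty acid synthase, was 12.83, 11.36, 12.44, 11.29 and 11.85 at 9 h and 12.92, 13.39, 12.54, 13.00 and 13.12 at 24 h. It rose by 1.04 ± 0.28 (limma adjusted p = 0.0405), with overlap through 9 h animal 1, and the call was absent without any of 7 animals (24 h animals 1, 2, 4 and 5 and 9 h animals 2, 4 and 5, adjusted p = 0.0653 to 0.0892). Acacb was called at 0.81 and lost the call without 24 h animal 4 (adjusted p = 0.0524) or 9 h animal 4 (adjusted p = 0.0527), and Tkt at 0.62, which fell under 1.5-fold without 24 h animal 2 (0.58). Pnpla3, a lipase-like protein induced by sugar, had a change of 2.06 ± 0.60 that missed the threshold (limma adjusted p = 0.0597), with 9 h animals from 7.29 to 10.37.

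Mid1ip1, an activator of acetyl-CoA carboxylase, was among the 2 members that fell. It was 12.15 to 12.73 at 9 h and 10.46 to 12.04 at 24 h, and fell by 1.05 ± 0.24 (limma adjusted p = 0.0207). Srebf1, the transcription factor of lipogenesis, changed by -0.56 ± 0.16 (limma adjusted p = 0.0548) and Thrsp, another regulator of lipogenesis, by 0.32 ± 0.20 (limma adjusted p = 0.414). Neither was called.

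In sugar handling, 5 of 22 measured genes of glycolysis and glycogen rose and 2 fell (31.8% called beside 1.53% of all genes). The list median was 0.10. Tkfc, which phosphorylates the glyceraldehyde made from fructose, was 11.54, 10.78, 11.57, 11.30 and 11.24 at 9 h and 12.36, 12.43, 12.71, 12.69 and 12.58 at 24 h. There was no overlap, and the rise was 2.41-fold (1.27 ± 0.14, limma adjusted p = 0.00029). Khk, the fructokinase that precedes it, rose by 0.64 ± 0.07 (limma adjusted p = 0.000414), and Slc2a5, a fructose transporter, by 1.16 ± 0.19 (limma adjusted p = 0.00421). Khk and Slc2a5 were picked after their values were seen, and Slc2a5 was not on the list.

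Ugp2 makes UDP-glucose, the precursor of glycogen. It was 11.27 to 11.55 at 9 h and 12.36 to 12.51 at 24 h, a rise of 2.07-fold with the smallest error among the named rises of this list (1.05 ± 0.06, limma adjusted p = 3.01e-06). Gpi, the glucose-6-phosphate isomerase, rose by 0.81 ± 0.12 (limma adjusted p = 0.00238). Ppp1r3c, a scaffold that activates glycogen synthase, fell by 0.92 ± 0.20 (limma adjusted p = 0.0163). Of 23 genes of gluconeogenesis and fasting only Gpt, the alanine aminotransferase, was called, with a fall of 0.72 ± 0.17 (limma adjusted p = 0.0236). The share called was 4.35%, beside 1.53% of all genes. The number called was 2 to 4 without 1 of 24 h animals 1, 2 and 3 or 9 h animals 1 and 2. It was highest without 24 h animal 2, and 1 without any other animal.

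**Figure D3:**
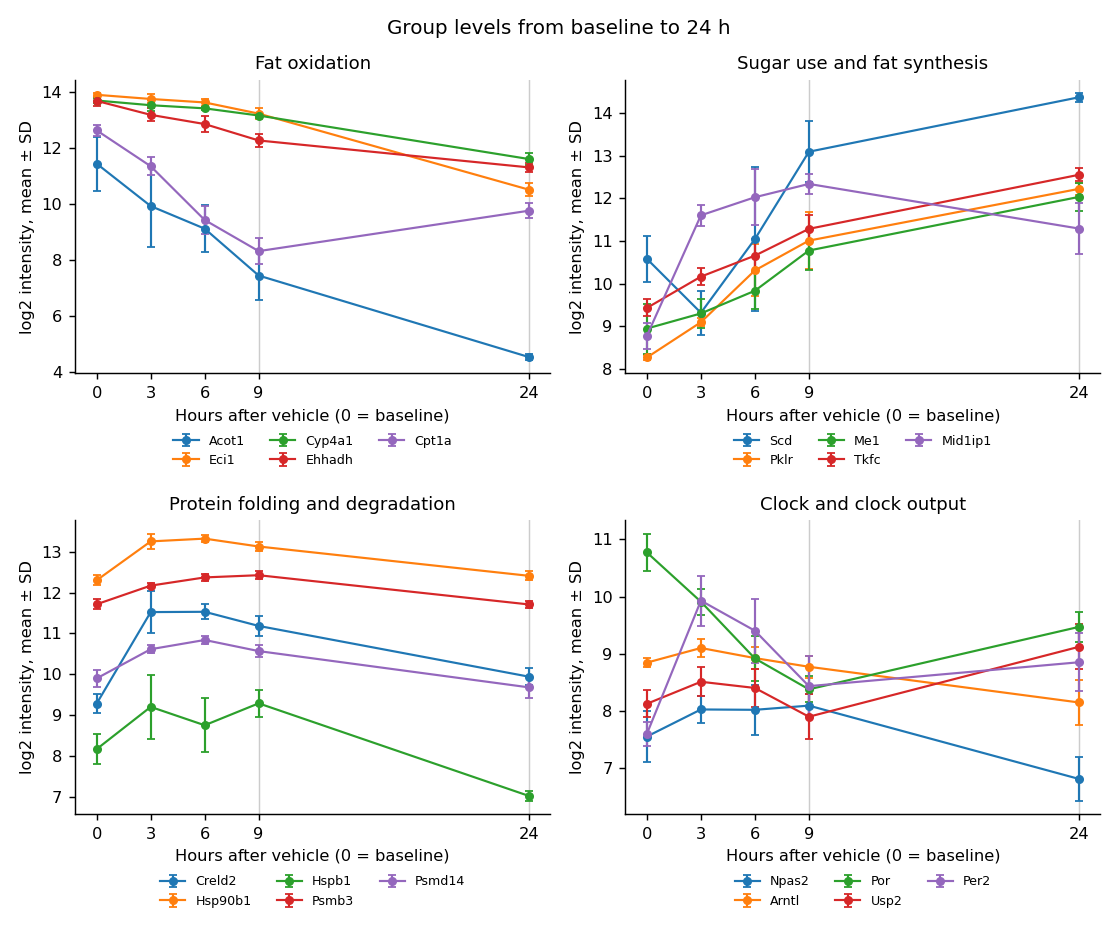
Mean log2 intensity ± SD of 5 animals at 0 h (baseline) and at each of the 4 times after vehicle, in panels for genes of fat oxidation, sugar use and fat synthesis, protein folding and degradation, and the clock. Vertical lines mark the 9 h and 24 h groups. Cpt1a has its lowest mean at 9 h, and Creld2 rises from 9.28 at 0 h to 11.53 at 6 h before the lower 24 h level of 9.94.

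Other lipid genes were among the largest changes of all. Angptl8, a hormone of liver and fat that is induced by feeding and holds back lipoprotein lipase, was 12.26, 11.57, 11.12, 11.37 and 11.76 at 9 h and 10.01, 9.49, 9.43, 8.58 and 8.27 at 24 h. No 24 h animal came near the 9 h range, and the fall was 5.50-fold (-2.46 ± 0.31, limma adjusted p = 0.00078). Its means were 8.18 at 0 h, 11.88 at 3 h and 11.78 at 6 h, so that the 3 h, 6 h and 9 h means lay above those at 0 h and 24 h. Aig1, a hydrolase of fatty acid esters of hydroxy fatty acids, was 10.11, 10.16, 10.16, 10.27 and 10.38 at 9 h and 8.12, 8.03, 8.14, 8.20 and 7.98 at 24 h. Each group was tight and the fall was 4.36-fold (-2.12 ± 0.06, limma adjusted p = 8.15e-09).

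Fabp2 (intestinal fatty acid binding protein) fell by 1.48 ± 0.16 (limma adjusted p = 0.00031), and Cidea, a lipid droplet protein, by 1.22 ± 0.16 (limma adjusted p = 0.00125). Fabp5, another fatty acid binding protein, rose instead, from 11.76 to 12.50 at 9 h to 13.29 to 14.04 at 24 h (1.40 ± 0.15, limma adjusted p = 0.00029). Its group means were 9.31 at 0 h, 9.09 at 3 h, 10.58 at 6 h, 12.16 at 9 h and 13.56 at 24 h.

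Slc6a6, the taurine transporter, fell by 1.97 ± 0.21 (limma adjusted p = 0.00027). Among the largest rises, Zfp354a, a KRAB zinc finger protein, was 8.87, 8.48, 8.20, 8.73 and 8.99 at 9 h and 10.50, 10.07, 11.17, 10.76 and 11.40 at 24 h, 4.36-fold higher with no overlap (2.13 ± 0.23, limma adjusted p = 0.000297). Myc, a transcription factor of growth, was 6.66, 7.31, 7.97, 7.19 and 7.0 at 9 h and 8.83, 9.46, 8.57, 9.71 and 8.79 at 24 h. It rose 3.6-fold (1.85 ± 0.26, limma adjusted p = 0.00145). Rgs16, a regulator of G protein signaling, rose by 1.61 ± 0.22 (limma adjusted p = 0.00132), Aspg, an asparaginase, by 1.48 ± 0.19 (limma adjusted p = 0.00108), and Nmrk1, a nicotinamide riboside kinase of NAD synthesis, by 1.26 ± 0.12 (limma adjusted p = 0.000187). Mean Rgs16 was 9.92 at 0 h, 7.29 at 9 h and 8.90 at 24 h, and mean Myc was 8.6, 7.22 and 9.07.

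Proteasome subunits were lower as a set. All 28 measured members had a lower mean at 24 h, from -0.89 (Psmd14) to -0.20 (Psmd11), with a median of -0.49 beside -0.01 over all genes. The adjusted p was under 0.05 for 26 of the 28, beside 1046 of all 13877 genes. Only 6 reached 1.5-fold and were called (21.4% of the list beside 1.53% of all genes). The mean over the list was 10.93 to 11.09 in the 5 animals at 9 h and 10.44 to 10.58 in those at 24 h, which do not overlap. Psmb3, a subunit of the catalytic core, was 12.33, 12.51, 12.31, 12.51 and 12.46 at 9 h and 11.60, 11.82, 11.75, 11.73 and 11.66 at 24 h. Both groups were tight, and it fell with no overlap (-0.72 ± 0.06, limma adjusted p = 6.31e-05).

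Psmd14, the deubiquitinase of the regulatory particle, was 10.75, 10.47, 10.53, 10.42 and 10.68 at 9 h and 10.01, 9.73, 9.43, 9.39 and 9.84 at 24 h. It fell by 0.89 ± 0.12 with no overlap (limma adjusted p = 0.00114). Psmd1, a scaffold of the regulatory particle, fell by 0.84 ± 0.19 with overlapping groups (limma adjusted p = 0.0188), and Psmc5, an ATPase of it, by 0.70. Psma2, of the core, fell by 0.67 and Psmd2, a further scaffold, by 0.60. These last 2 were chosen after their values were seen, and Psmd2 was under 1.5-fold without 9 h animal 4 (-0.58). In the group means Psmb3 was 11.71 at 0 h, 12.17 at 3 h, 12.37 at 6 h, 12.43 at 9 h and 11.71 at 24 h.

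In the list of endoplasmic reticulum (ER) chaperones and the unfolded protein response, 7 of 29 measured members fell and none rose. The share called was 24.1%, beside 1.53% of all genes, with a list median of -0.35. An adjusted p under 0.05 was found for 15 members, beside 1046 of all 13877 genes. Creld2, a secreted ER stress protein, was 11.51, 11.28, 11.01, 10.90 and 11.21 at 9 h and 10.06, 9.66, 9.84, 10.20 and 9.97 at 24 h. The groups did not overlap, and the fall was 2.36-fold (-1.24 ± 0.12, limma adjusted p = 0.000187). Hsp90b1, the ER member of the Hsp90 family, was 13.30, 13.10, 12.98, 13.08 and 13.19 at 9 h and 12.42, 12.30, 12.39, 12.58 and 12.36 at 24 h. It fell by 0.72 ± 0.07 with no overlap (limma adjusted p = 0.000187).

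Sdf2l1 and Dnajb11, which work with the chaperone BiP, fell by 0.70 ± 0.13 (limma adjusted p = 0.00914) and 0.67. Further members called, given after their values were seen, were the disulfide isomerases Pdia4 (-0.66) and Pdia3 (-0.63, under 1.5-fold at -0.58 without 9 h animal 2) and the oxidase Ero1b (-0.60, with overlap, absent without any of 24 h animals 2 and 3 and 9 h animals 3, 4 and 5, adjusted p = 0.0463 to 0.0623). Hspa5, which encodes BiP itself, was 13.04 to 13.15 at 9 h and 12.62 to 12.96 at 24 h. These groups did not overlap, but the change of -0.29 ± 0.06 was small (limma adjusted p = 0.0142). Creld2 and Hspa5 had means of 9.28 and 12.43 at 0 h and 11.52 and 13.50 at 3 h. Ddit3 (CHOP), a transcription factor of prolonged ER stress, fell by 0.76 ± 0.09 (limma adjusted p = 0.000507). Its call was lost in a fit of all 45 arrays. It was on another list, that of the Atf4 and amino acid response, where it was the only called gene of 28 (3.57% beside 1.53%). That list had a median of 0.08, with 17 members higher and 11 lower in the mean. The number called there was 3 without 9 h animal 2.

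Of the cold and heat responsive genes, 2 of 20 fell and 1 rose, 15% of the list beside 1.53% of all genes. Hspb1, the small heat shock protein Hsp27, was 9.55, 9.16, 8.77, 9.53 and 9.43 at 9 h and 7.11, 6.96, 6.88, 6.98 and 7.18 at 24 h. The groups were far apart, with a fall of 4.81-fold (-2.26 ± 0.13, limma adjusted p = 3.01e-06). Its means were 8.17 at 0 h, 9.20 at 3 h and 8.75 at 6 h, so that 24 h was the lowest. Hspe1, the mitochondrial co-chaperonin, fell by 0.62 ± 0.06 (limma adjusted p = 0.000138) and Hspa4l, a member of the Hsp110 family, rose by 0.62 ± 0.05 (limma adjusted p = 6.31e-05).

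**Figure D4:**
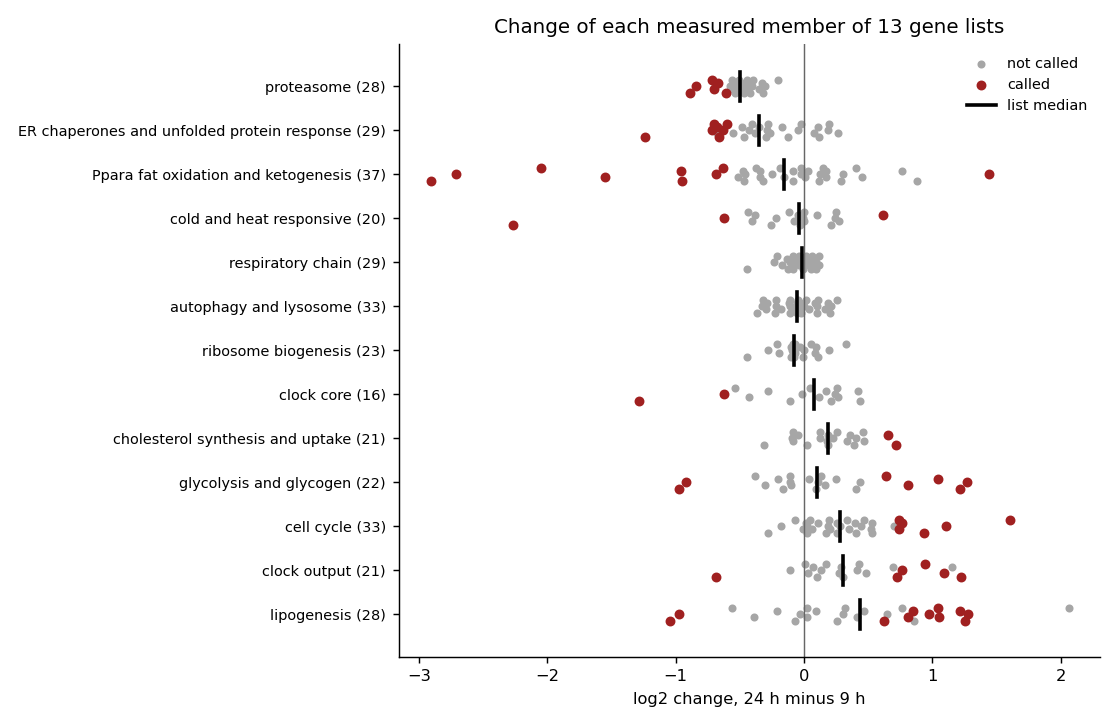
Log2 change from 9 h to 24 h in vehicle animals of each measured member of 13 gene lists (number of measured members in parentheses), with called genes in red, uncalled genes in gray and the list median as a black bar. All 28 proteasome genes lie left of zero, and lipogenesis has the rightmost median of the lists drawn, at 0.44.

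In the cell cycle list, 6 of 33 measured members rose and none fell (18.2% called beside 1.53% of all genes). The median was 0.28, beside -0.01 over all genes, and 29 of the 33 had a higher mean at 24 h. The number called ranged from 4 to 8 with 1 animal left out, and was 4 without 9 h animal 5. Mcm6, a subunit of the replicative helicase, was 5.20, 6.32, 6.17, 6.71 and 5.91 at 9 h and 7.84, 6.56, 7.36, 8.88 and 7.70 at 24 h. The groups overlapped through 24 h animal 2. It rose 3.04-fold (1.61 ± 0.37, limma adjusted p = 0.0229), with an adjusted p of 0.0539 without 9 h animal 5.

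Mcm4, of the same helicase, was 5.95, 6.47, 6.41, 6.25 and 6.30 at 9 h and 7.48, 7.04, 7.12, 8.32 and 6.95 at 24 h. It rose 2.15-fold with no overlap (1.10 ± 0.22, limma adjusted p = 0.0121). Animal 4 of the 24 h group had the highest value for both Mcm genes. Ccnd1 (cyclin D1), which drives entry into the cycle, rose by 0.94 ± 0.20 (limma adjusted p = 0.0142), with 24 h animal 2 at 8.73 and the other animals of its group at 9.45 to 9.72. Zfp367, a zinc finger protein, rose by 1.25 ± 0.25 (limma adjusted p = 0.0107), and was highest, at 6.86, in 24 h animal 4.

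Given after their values were seen, Pcna, the sliding clamp of DNA polymerase, rose by 0.74 ± 0.12 (limma adjusted p = 0.00371), Rpa1, which binds single-stranded DNA, by 0.66 ± 0.10 (limma adjusted p = 0.0025), and Dscc1, which helps load the clamp, by 0.72 ± 0.16 (limma adjusted p = 0.0217). Dscc1 was under 1.5-fold without 24 h animal 4 (0.56). Mcm2 rose by 0.74 ± 0.18 (limma adjusted p = 0.0309), absent without any of 5 animals (24 h animals 1 and 5 and 9 h animals 1, 2 and 5, adjusted p = 0.0554 to 0.07). Mcm3 and Mcm5 changed by 0.53 each and were not called. The risen genes named here and above for the cell cycle were not all on its list, which had 6 called members. Genes of mitosis on the same list were not called, among them Plk1 (0.05), Aurka (0.03) and Cdk1 (0.35), 3 kinases picked after their values were seen.

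Of 28 genes of the cytochrome P450 system 3 rose, among them Por and Nr1i3, and 1 fell (Cyp2j4). This was a share of 14.3%, beside 1.53% of all genes. Cyp2j4, an arachidonic acid epoxygenase, fell by 0.96 ± 0.11 (limma adjusted p = 0.000386). Glucocorticoid targets had 2 of 17 called (11.8% beside 1.53% of all genes), both higher. The number called was 1 without any of 24 h animals 3 and 4 or 9 h animals 1, 2 and 3. Serpina6, the corticosteroid binding globulin, was 12.26 to 12.53 at 9 h and 12.95 to 13.30 at 24 h and rose by 0.72 ± 0.07 (limma adjusted p = 0.00024).

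In iron and acute phase genes, Hamp, which encodes the iron hormone hepcidin, was 12.63 to 13.19 at 9 h and 11.61 to 12.49 at 24 h and fell by 0.78 ± 0.16 (limma adjusted p = 0.0132). Its mean at 0 h was 9.43. Of 25 genes in bile acid synthesis and transport only 1 was called (4% beside 1.53% of all genes). This was Abcg5, a sterol exporter, which fell by 0.87 ± 0.18 (limma adjusted p = 0.0145). The number called in that list was 2 without 24 h animal 3 or 9 h animal 1 and 3 without 9 h animal 2. Cholesterol synthesis and uptake had 2 of 21 genes called, both higher (9.52% of the list beside 1.53% of all genes). The count ranged from 0 to 2 with 1 animal left out. It was 0 without any of 24 h animals 1, 2 and 3 or 9 h animals 2, 3 and 4. Sqle, the squalene epoxidase, changed by 0.66 ± 0.18 (limma adjusted p = 0.0458), and besides those animals was not called without 24 h animal 4 (limma adjusted p = 0.0893) or 9 h animal 5 (limma adjusted p = 0.0636).

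No gene was called in the lists of ribosome biogenesis (23 genes), autophagy and lysosome (33), the respiratory chain (29), the growth hormone and IGF axis (22) or interferon response (25). At an unadjusted p under 0.05 these lists held 5, 10, 5, 7 and 4 genes, beside 2921 of all 13877 (21%). The growth hormone list had 2 called without 24 h animal 2 and 1 without 9 h animal 2. Medians were -0.07, -0.05, -0.01, -0.04 and 0.08.

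Genes of liver identity were compared between the 2 groups. No other tissue entered the comparison, so the tissue label itself was not tested. The mean over 21 identity genes was 11.32 to 11.41 in 9 h animals and 11.31 to 11.48 in 24 h animals. Only Foxa3, a liver transcription factor, was called (4.76% of the list beside 1.53% of all genes), at -0.60 ± 0.14 (limma adjusted p = 0.0207). The call was absent without 24 h animal 2 or 5 or 9 h animal 2 or 4 (-0.50 to -0.56). None of the markers of other liver cell types was called, although 1 stellate cell marker was without 24 h animal 5. At an unadjusted p under 0.05, passed by 21% of all genes, there were 0 of 8 for neutrophils and monocytes, 0 of 11 for Kupffer cells, 1 of 14 for lymphocytes, 0 of 10 for endothelium, 4 of 12 for stellate cells and fibroblasts, 1 of 10 for cholangiocytes and 2 of 12 for red cells and platelets. The mean over the stellate and fibroblast markers was 7.63 to 7.75 at 9 h and 7.67 to 8.05 at 24 h, with Lum, a proteoglycan of connective tissue, at 0.65. All 12 red cell and platelet markers were lower in the mean, with a median of -0.15. The table holds no detection calls, so that low intensities could not be set against background. The part of these markers in the results above was not tested.

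The same interval was measured in separate animals given APAP, which share no array with the vehicle groups. From 9 h to 24 h after APAP, 2283 genes were called (16.5%), and the change differed between APAP and vehicle animals for 2279 genes (16.4%). Of the 213 genes called in vehicle animals, 134 (62.9%) changed in the same direction after APAP, beside 53.2% of all genes. Both groups called 92 of them the same way, and 113 had a change that differed by the test of the difference. The 213 genes were chosen by their vehicle change, which enters that difference from the same arrays. The 113 can therefore not be set against the 16.4% of all genes.

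Falls of several fat oxidation genes were called after both treatments. Eci1 changed by -2.46 after APAP and -2.71 after vehicle (difference 0.25 ± 0.22, limma adjusted p = 0.442), Ech1 by -2.33 and -2.03, Vnn1 by -2.10 and -2.05, and Cyp4a1 by -1.49 and -1.55. None of these differences was called. For 3 of the 8 members that fell after vehicle the fall after APAP was larger by the test of the difference. Acot1 changed by -4.99 after APAP (difference -2.09 ± 0.70, limma adjusted p = 0.0267), Acot2 by -2.89 (difference -1.94 ± 0.22, limma adjusted p = 8.38e-07) and Ehhadh by -2.38 (difference -1.42 ± 0.23, limma adjusted p = 7.71e-05). Their 9 h means were higher with APAP than with vehicle, at 9.69 and 7.44 (Acot1), 11.435 and 9.38 (Acot2) and 13.02 and 12.26 (Ehhadh). The 24 h means with APAP and vehicle were 4.69 and 4.53, 8.55 and 8.43, and 10.64 and 11.30. Both Acot1 means at 24 h were low, and whether background limited them was not tested. Usp2 rose in both, by 1.34 and 1.22 (difference 0.12 ± 0.30, limma adjusted p = 0.821). Slc6a6 fell in both, by 1.5 and 1.97.

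Several genes moved in opposite directions. Cpt1a fell by 2.12 after APAP and rose after vehicle, a difference of -3.56 ± 0.31 (limma adjusted p = 3.07e-08). Por fell by 1.77 after APAP (difference -2.86 ± 0.21, limma adjusted p = 2.87e-09). Myc fell by 2.84 (difference -4.69 ± 0.36, limma adjusted p = 5.63e-09). The 9 h mean of Por was 10.88 with APAP and 8.38 with vehicle. The 24 h means, 9.11 and 9.47, lay closer together.

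Mid1ip1 rose by 2.18 after APAP (difference 3.22 ± 0.35, limma adjusted p = 6.69e-07). Creld2 rose by 1.06 after APAP and fell after vehicle (difference 2.30 ± 0.17, limma adjusted p = 2.57e-09). Npas2 was 6.61 at 9 h and 6.81 at 24 h after APAP, a change of 0.20 ± 0.15 that differed from vehicle by 1.48 ± 0.23 (limma adjusted p = 5.09e-05). Per2, not called in vehicle animals, rose by 1.65 after APAP (difference 1.24 ± 0.35, limma adjusted p = 0.00961).

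**Figure D5:**
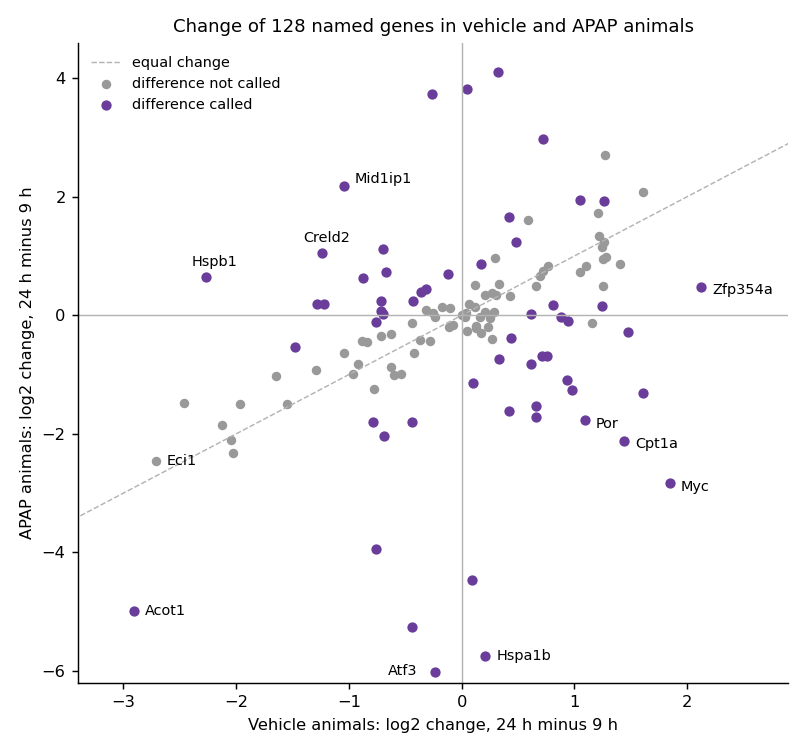
Log2 change from 9 h to 24 h of each named gene in vehicle animals (horizontal axis) and in APAP animals (vertical axis), with genes whose changes differed between treatments in purple and the dashed line marking equal change. Eci1 lies near the line, whereas Mid1ip1 lies above it and Cpt1a, Por and Myc below.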

How the data were processed

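Liver RNA of 45 rats was measured on Affymetrix Rat Genome 230 2.0 arrays, and 10 vehicle arrays entered the main comparison. The deposited values are log2 intensities made by the authors with RMA, which corrects background, quantile-normalizes and summarizes probes per gene (the submitters' processing notes name affy 1.64.0, R 3.6.1 and limma 3.42.2 and give no version for RMA). The deposited table holds 13877 probe sets, 1 per gene. Other deposited columns pair each with its Entrez number and symbol, of which 13530 numbers were in the RefSeq table and 923 symbols were placeholders or blank. A further 45 value columns with unexplained animal codes were not used. Quantile normalization gives arrays one distribution, so a shift of most genes at once would not show. Array batches and scan dates are not given in the sources used here.

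Tests used lmFit and eBayes of limma 3.58.1 under R 4.3.3 (two-sided, no covariate, Benjamini-Hochberg over all genes) on the 10 vehicle arrays at 9 h and 24 h, and called at an adjusted p under 0.05 and at least 1.5-fold. The difference of the change between APAP and vehicle animals was an interaction in a fit of 20 arrays. The number of arrays, 5 per group, limits the precision, and no sequencing depth applies. Simulated data had 50 genes changed at each fold size among 13877. Their noise was normal and independent between genes, with the means and SDs of the real genes. The main fit recovered 42 at 1.6-fold, 49 at 2-fold, 50 at 3-fold and 50 at 5-fold, with 3 unchanged genes called. Real arrays can hold correlated genes and outlying animals, so these counts describe the simulation only.

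The comparison, gene lists and naming rule were chosen with earlier results of these data known. Of 875 list genes in 36 lists 762 were measured, 8 of them matched by a current symbol or synonym. The rule named all measured clock and clock output genes, the 15 largest rises and 15 largest falls among called genes with a proper symbol and no overlap, in every other list up to 4 called genes each way or the 2 with the lowest p, and the 5 largest interactions each way. Some of these genes were left out of the text without replacement, leaving 128. Counts over all genes and over lists include them. Not all of the 128 are described. Replicate numbers 1 to 5 recur in every group but name different animals, and did not pair samples. Alternatives were other sets of arrays, variance models, array weights, filters, normalizations, thresholds, a replicate block and leaving out each animal.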

Additional observations from a re-analysis of the deposited data

Results flagged for a closer look

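The change from 9 h to 24 h differed between APAP and vehicle animals, by the limma interaction, in 31 genes given here: those of the clock and its output, large differences each way, and genes of the naming rule called in opposite directions. Values are the log2 change after APAP minus that after vehicle. Among clock and output genes they were Npas2 1.48, Per2 1.24, Hlf 0.75, Ppara 0.69, Nr1d2 -0.82, Nampt -1.04, Klf9 -1.25, Klf10 -1.36, Wee1 -1.45, Nfil3 -2.03 and Por -2.86. Among the largest positive differences were Slc17a3 (3.99), Thrsp (3.79), Car3 (3.77) and Mid1ip1 (3.22), and the largest negative ones were Hspa1b (-5.96), Atf3 (-5.77), Zfand2a (-4.82), Myc (-4.69) and Maff (-4.55). Hspa1b, Atf3, Zfand2a and Maff, which are stress genes, were not called in vehicle animals, with changes of 0.21, -0.24, -0.44 and 0.09. Of 38 genes called in opposite directions, those named by the rule and given here were Creld2 (2.30), Sdf2l1 (1.81), Abcg5 (1.51), Dnajb11 (1.40), Hspa4l (-1.44), Ccnd1 (-2.03), Sqle (-2.18), Oat (-2.24), Cxcl1 (-2.37), Rgs16 (-2.93) and Cpt1a (-3.56), beside Mid1ip1, Myc, Por and Wee1 above. Pcna (-1.85), Pdia4 (1.38), Pdia3 (1.22) and Ero1b, named after their values were seen, were also called in opposite directions.

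In 12 genes 1 animal stood far from the other 4 of its group by Dixon's criterion, among 242 groups tested in 121 genes, where chance gives about 1 in 20. At 9 h these were Acot1 in animal 1 (5.91, others 7.60 to 8.16), Ppara in animal 4 (8.70, others 8.21 to 8.30), and Cry1 (8.45) and Hspa4l (5.55) in animal 5. At 24 h they were Tagln in animal 1 (6.81), Ccnd1 (8.73) and Lbp (9.34) in animal 2, Gbp2 in animal 3 (7.79), and Bckdhb (10.77), Cd5l (8.09), Csnk1d (9.41) and Klf15 (11.11) in animal 5. The change without the animal was -3.29 for Acot1 and 1.11 for Ccnd1.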

How the results depend on the processing

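The count of 213 called genes (107 higher, 106 lower) was 188 to 217 with 1 animal left out (89 to 110 higher, 96 to 121 lower). It was 140 (60 higher) at an adjusted p under 0.01, 1046 (423 and 623) with no fold threshold, 58 (35 and 23) at 2-fold and 15 (4 and 11) with limma treat against 1.5-fold. The count of 2279 genes that differed between APAP and vehicle animals (1165 and 1114) was 2233 to 2368 with 1 animal left out (1135 to 1245 and 1063 to 1192), 4462 (2418 and 2044) with no fold threshold, 834 (377 and 457) at 2-fold and 668 (313 and 355) with limma treat. Of 70 called genes named by the rule and reported, 56 kept the call without each animal in turn. The others were described with the animals concerned or are Bckdhb, Cenps, Cxcl1, Gsta3, Id1, Lbp, Mat1a, Oat, Tsc22d3 and Tstd1. Of the 70, only 44 kept the call at an adjusted p under 0.01, 37 at 2-fold and 12 with limma treat against 1.5-fold. Calls kept numbered 63 in a fit of all 45 arrays and 68 in a fit of 25, and Scd was lost in both. They numbered 70 with limma-trend, 66 with robust variances, 68 with array weights, 66 with cyclic loess, 68 with median centring and 68 of 68 without the dimmest 25% of genes.

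With the replicate number as a block, 220 genes were called (111 and 109) and 2290 differed between treatments. The numbers name different animals: deviations of same-numbered animals correlated by -0.08 to 0.16, and 2 of 5 animals at 9 h matched their own number best. The block ended the calls of Cxcl1, Foxa3 and Gpt.

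The direction turned in 3 uncalled genes: Klf9 (-0.00862 without 24 h replicate 5, at most 0.258 with 1 animal out), Mgll (-0.00176 without 24 h replicate 4, at most 0.105), and Elovl3 (-0.00203 with median centring, and -0.0147, -0.00333, -0.00699 and -0.00812 without 24 h replicates 3 and 5 and 9 h replicates 1 and 5, at most 0.0297). The cause of these changes was not tested. A gene of low intensity may carry mostly background, which the table cannot show.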

Other observations

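These genes were picked among the called genes after their values were seen, so no count of them supports anything further. Among enzymes of galactose breakdown, Galk1, the galactokinase, was 11.34, 11.68, 11.48, 11.81 and 11.63 at 9 h and 10.72, 10.70, 10.77, 10.90 and 10.96 at 24 h. The groups did not overlap, and the change was -0.78 ± 0.09 (limma adjusted p = 0.000396). Galt, the uridylyltransferase that follows, was 10.85 to 11.16 at 9 h and 10.21 to 10.48 at 24 h, a change of -0.70 ± 0.07 (limma adjusted p = 0.00029). Neither was called after APAP (-0.14 and 0.42), and the difference between treatments was called for both (0.64 and 1.11).

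Among folate and methyl group enzymes, Aldh1l1, which oxidizes formyl tetrahydrofolate, was 11.70 to 11.87 at 9 h and 12.52 to 12.81 at 24 h (0.85 ± 0.06, limma adjusted p = 1.82e-05). Sardh, the sarcosine dehydrogenase, rose by 0.65 ± 0.10 (limma adjusted p = 0.00278). Mat1a, which makes S-adenosylmethionine, rose by 0.62 ± 0.07 and was under 1.5-fold without 24 h animal 2 (0.58) or 9 h animal 1 (0.57).

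Of the alcohol dehydrogenases, Adh1 rose by 0.78 ± 0.12, Adh4 by 1.13 ± 0.23 and Adh7 by 0.99 ± 0.19, each without overlap. They are related in sequence and could share probe signal. At the entry of pyruvate to mitochondria, Pdk1, which blocks pyruvate dehydrogenase, rose by 0.98 ± 0.12 (limma adjusted p = 0.00078) and Mpc2, a subunit of the pyruvate carrier, fell by 0.80 ± 0.08 (limma adjusted p = 0.00016). Sult2a2, a sulfotransferase of bile acids and steroids, was 7.13 to 7.91 at 9 h and 10.72, 11.75, 9.46, 7.58 and 10.82 at 24 h. Its 6.61-fold rise was the largest of any gene (2.72 ± 0.61, limma adjusted p = 0.0189), yet 24 h animal 4 lay within the 9 h range. The 9 h group was unusually tight, with an SD of 0.32. The SD was 2.04 at 0 h, 1.95 at 3 h, 1.38 at 6 h and 1.61 at 24 h. Means at 0 h, 3 h, 6 h, 9 h and 24 h were 8.58, 10.41, 7.77, 7.34 and 10.06.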
